A study of Mus musculus with 12 samples.

Results

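S100 genes encode small calcium-binding proteins. The 9 genes described here were S100a1, S100a3, S100a4, S100a6, S100a8, S100a9, S100a10, S100a11 and S100a13. They were chosen by name, as the probe sets that the annotation of the Affymetrix MG_U74Av2 array gives to a listed symbol. All 9 genes had a probe set, with 16 probe sets among the 12488 on the array. A probe set is a group of short oligonucleotides whose intensities are summarised into 1 value. In the test across all genes, 7 of the 9 were represented, each by its brightest probe set. S100a8 and S100a9 were too dim to pass the filter on low values and are described by their values.

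S100 proteins carry paired EF-hand loops, and most change shape when calcium binds, which exposes a surface for partner proteins. Inside cells they act on annexins, cytoskeletal proteins and enzymes, and some are also released and act on receptors such as RAGE and TLR4. Many of their genes lie in a cluster, and several are known for raised levels in colorectal and other epithelial tumors.

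The 12 arrays measured RNA of normal intestine (6 arrays) and of tumor (6 arrays) from male mice aged 91 days. Every group carried the Min allele of Apc over a wild type allele (Min/+), a mutation with which mice develop intestinal adenomas. Within each tissue, the diets were numbered #1, #2 and #3, and each diet had 1 array of genotype Dnmt+/- and 1 of Dnmt+/+, a DNA methyltransferase gene that the labels do not number. A sample code was shared by 1 normal and 1 tumor array of the same diet and genotype, which gives 6 code pairs. The sources used here do not give the composition of the diets, the intestinal segment or any pooling of animals. The labels do not say that each array is a different mouse. A p-value therefore speaks only of the spread among these samples, which may be technical.

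The deposited intensities of the diet #1 arrays had means of 306 to 403, with 40.9% to 46.0% of probe sets at the value 50, whereas every array of diets #2 and #3 averaged 1000. Diet #1 therefore coincides with a file format, and it was not tested against the other diets. In the normal tissue of diet #2, summed exocrine pancreas markers were 243520 and 272420, against 25667 to 27523 in the other normal arrays. Epithelial markers were measured in both tissues, with summed normalized intensities of 106970 to 142550 in normal tissue and 154810 to 176280 in tumor. Of 16 tested, 7 were higher in tumor and 1 lower, where 18.2% and 16.9% of all features were. On its brighter probe set, Dnmt1 was lower in Dnmt+/- than in Dnmt+/+ arrays in each tissue of diets #2 and #3. It was at 503 against 667 and 422 against 579 in normal tissue and 729 against 1068 and 668 against 1214 in tumor. A dimmer Dnmt1 probe set was lower in Dnmt+/- tumor of both diets, at a deposited 88.4 against 132 and 12.1 against 15.4. After normalization the diet #3 tumor values were 23.0 and 25.4, both below 44.8, the floor used for log2 values. In normal tissue the dimmer probe set was higher in Dnmt+/-, at a deposited 76.0 against 71.6 and 107 against 70.3. On the diet #1 normal arrays Dnmt1 was at the deposited value 50 in both genotypes. In diet #1 tumor the brighter probe set was at a deposited 50 in Dnmt+/- and 251.5 in Dnmt+/+.

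The promoters of S100a6 and S100a11 are shown because these genes had the largest tumor differences of the family. RefSeq tables of build GRCm38.p6 held windows for 8 of the 9 genes. The 250 bases upstream of the start of S100a6 (chr3:90612644-90612893, plus strand) and of S100a11 (chr3:93520246-93520495, plus strand) are given 5′ to 3′. Capitals mark matches to the AP-1 motif (TGANTCA) and to the TCF/LEF motif (TCAAAG, read on either strand).
S100a6: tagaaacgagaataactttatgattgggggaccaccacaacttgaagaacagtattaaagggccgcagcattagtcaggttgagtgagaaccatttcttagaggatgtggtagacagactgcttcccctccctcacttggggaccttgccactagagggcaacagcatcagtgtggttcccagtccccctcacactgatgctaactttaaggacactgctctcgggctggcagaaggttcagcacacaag
S100a11: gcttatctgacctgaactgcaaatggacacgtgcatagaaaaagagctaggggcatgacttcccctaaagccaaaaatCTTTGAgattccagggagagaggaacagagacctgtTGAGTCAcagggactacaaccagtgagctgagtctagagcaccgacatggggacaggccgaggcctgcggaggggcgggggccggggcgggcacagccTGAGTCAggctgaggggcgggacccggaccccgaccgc
The S100a11 window held the letters TGAGTCA at positions -136 and -38, counted from the gene's start as 0, and a reverse-strand TCF/LEF match at -172. Among 32851 promoter windows of 300 bases, 7.81% held at least 1 AP-1 match and 0.460% held 2 or more, with both strands read, and 16% held a TCF/LEF match. The S100a6 window held neither motif, and no TATA box (TATAAA, in 13.6% of windows) or TEAD motif (GGAATG, in 14.7%). TATAAA stood at -31 in the S100a4 window, at -30 in that of S100a8, at 0 in that of S100a9 and at -52 in a window of S100a3. Another S100a3 window held a TCF/LEF match at -139 and a TEAD match at -179. These motifs were chosen after the expression values were seen, and a match describes letters only.

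Tumor and normal tissue differed in 5 of the 7 tested S100 genes. S100a6, S100a11, S100a10 and S100a13 rose and S100a1 fell in tumor, by limma with Benjamini-Hochberg adjustment over 6400 features and a threshold of 0.05. Over all features, 35.2% passed in either direction, 18.2% higher and 16.9% lower. Of all features, 1167 were higher and 1084 lower with quantile normalization, against 847 and 1551 with median scaling and 1358 and 729 on the deposited values. The median tumor minus normal difference of the 7 genes was 0.68 on the log2 scale, against 0.00 over all features. In whole tissue, fewer cells of a type and less RNA per cell cannot be told apart.

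S100a6, calcyclin, binds the calcyclin-binding protein and annexins. Its normalized intensity was 1126, 1322 and 1714 in normal tissue (lowest, median and highest) and 14847, 17900 and 21602 in tumor. The groups did not overlap, and the lowest tumor array stood far above the highest normal array. How many of all 6400 features also had no overlap between tissues was not counted. The tumor minus normal difference was 3.74 ± 0.094 (log2, SE, 6 arrays per tissue), or 13.4-fold (95% interval 11.6 to 15.5), with a limma adjusted p of 5.22e-08. It had the smallest p of all 6400 features and the 14th largest difference. In the deposited values, without further normalization, tumor over normal ran from 11.4 to 15.7 in the 6 code pairs. The mean pair difference was 3.70, 3.85 and 3.68 in diets #1, #2 and #3.

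S100a11, calgizzarin, is a partner of annexin A1. Its probe set is shared, since the annotation also gives it to the pseudogene S100a11-ps and to Gm12854, so the value cannot be assigned to S100a11 alone. Intensity on this shared probe set was 793, 935 and 1056 in normal tissue and 6146, 7626 and 8517 in tumor. Again the groups did not overlap, with the share of all features without overlap not counted. The difference was 2.99 ± 0.080 (log2, SE, 6 arrays per tissue), or 7.96-fold (95% interval 7.03 to 9.02), with a limma adjusted p of 5.22e-08. This was the second smallest p of all features. Deposited tumor over normal ratios ran from 6.69 to 8.93 over the code pairs, and mean pair differences were 2.96, 2.90 and 3.12 in diets #1, #2 and #3.

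S100a10, p11, is unusual in the family because it does not depend on calcium, and with annexin A2 it forms a complex that binds plasminogen activators at the cell surface. Its intensity was 5189, 7410 and 8015 in normal tissue and 8868, 13048 and 13774 in tumor. The groups did not overlap, although the gap was narrow and the share of all features without overlap was not counted. The difference was 0.77 ± 0.071 (log2, SE), or 1.70-fold (95% interval 1.52 to 1.90), with a limma adjusted p of 7.27e-05. With median scaling the difference was 0.46 and still passed. All 6 code pairs were higher in tumor, with mean pair differences of 0.70, 0.79 and 0.81 by diet. The second, dimmer probe set of S100a10 gave 0.13 ± 0.16 (adjusted p 0.571 with every probe set tested) and was higher in tumor in 4 of 6 pairs.

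S100a13 takes part in the release of FGF1, which leaves cells without a signal peptide. Its intensity was 880, 1043 and 1649 in normal tissue and 1131, 1613 and 2359 in tumor. The groups overlapped because diet #3 arrays were high in both tissues, but tumor was higher in all 6 code pairs. The difference was 0.48 ± 0.10 (log2, SE), or 1.39-fold (95% interval 1.19 to 1.63), with a limma adjusted p of 0.00592. With median scaling of the arrays in place of quantile normalization, S100a13 did not pass (0.30, adjusted p 0.0519). Of its other probe sets, 1 gave 0.20 ± 0.088 (adjusted p 0.116), higher in all 6 pairs, and another gave 0.69 ± 0.32 (adjusted p 0.131). The latter was higher in tumor in 4 of 6 pairs, with mean pair differences of 1.93, 0.094 and 0.039 in diets #1, #2 and #3, and both of its diet #1 normal arrays were at the deposited value 50. The remaining probe set, below the filter, gave -0.42 ± 0.18 (adjusted p 0.165).

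S100a1, best known from heart and skeletal muscle, where it acts on calcium release and uptake, was the family's only tested gene that fell. Its intensity was 488, 969 and 1059 in normal tissue and 392, 546 and 603 in tumor. The groups overlapped, because the normal arrays of diet #1 lay at 488 and 591. Tumor was lower in all 6 code pairs, and S100a1 fell by 0.70 ± 0.15 on the log2 scale, or 1.63-fold (limma adjusted p 0.00614). Mean pair differences were -0.22, -0.84 and -1.04 in diets #1, #2 and #3. The difference between diet #1 and the others was not tested. Without the diet #2 arrays the value was -0.63 and did not pass (adjusted p 0.0715). The suffix of this probe set marks probes that also match similar sequences, and both other S100a1 probe sets were below the filter. Skeletal and heart muscle markers summed to 1760 to 4062 in normal tissue and 1546 to 3680 in tumor. In diet #3 the sums were 4062 and 3678 in normal tissue against 1879 and 1546 in tumor (Dnmt+/- then Dnmt+/+). In diet #2 they were 1760 and 1806 against 1909 and 2027, and in diet #1 3112 and 2444.5 against 3680 and 2265. Of these markers, 0 of 5 tested genes passed the threshold in either direction, and their part in the S100a1 result was not tested.

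**Figure D1:**
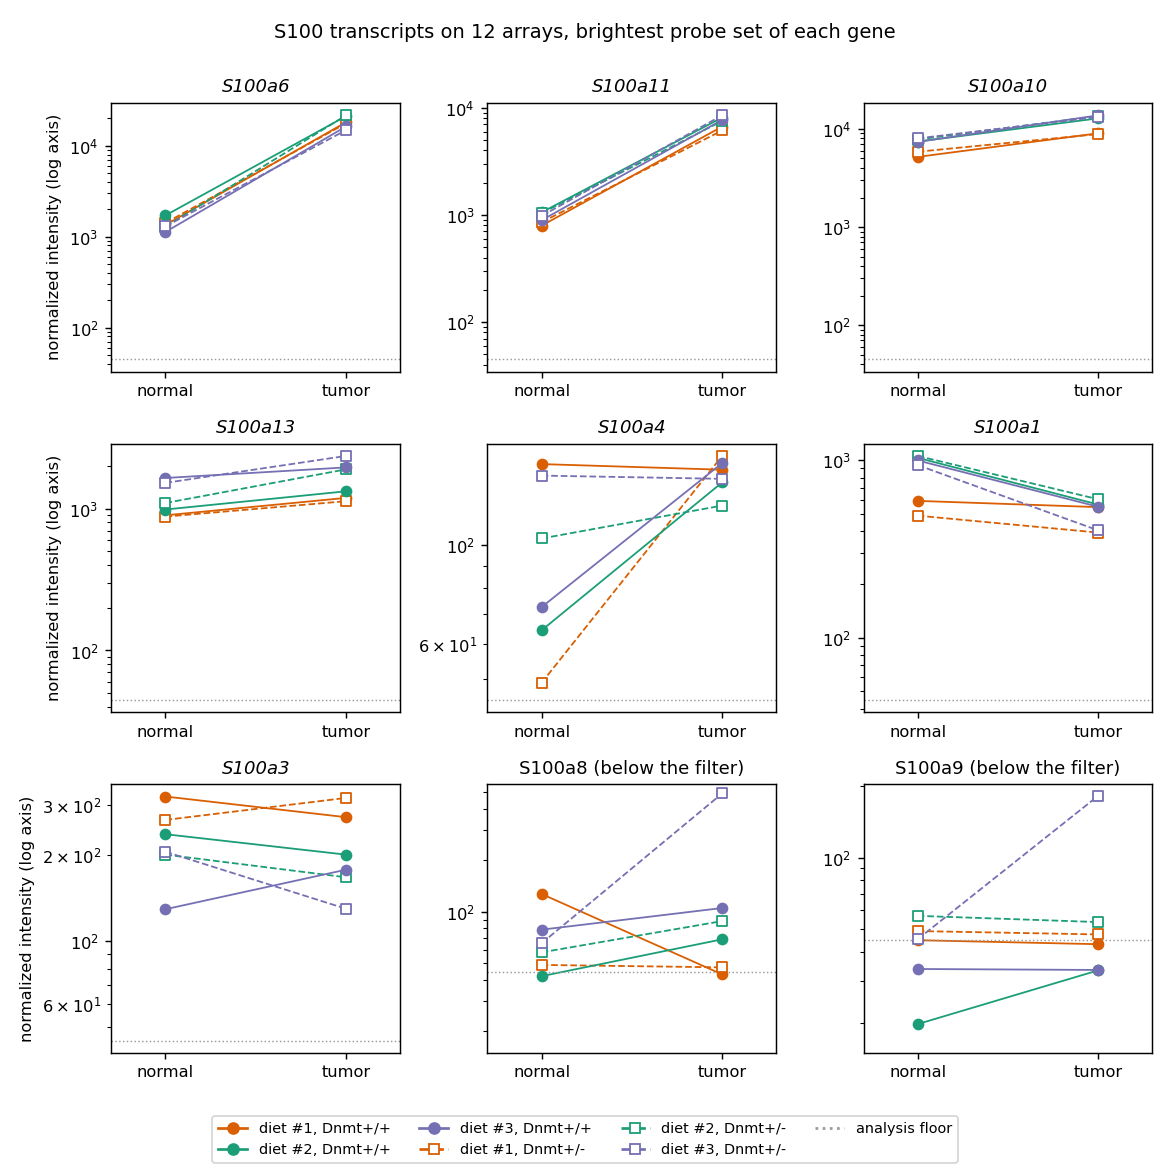
Normalized intensity (log axis, a different range in each panel) of the brightest probe set of each S100 gene on the 12 arrays. Lines join the normal and tumor array of a code pair, colour gives the diet, filled circles are Dnmt+/+, open squares are Dnmt+/- and the dotted line is the floor of 44.8 used for log2 values. S100a6, S100a11 (shared probe set) and S100a10 do not overlap between tissues, and the share of all features without overlap was not counted. S100a1 is lower in tumor in 6 of 6 pairs, and S100a8 and S100a9 stand high on a single tumor array.

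S100a4, metastasin, binds the non-muscle myosin heavy chain Myh9 and is found in fibroblasts and some migrating cells. Its intensity was 48.9, 88.0 and 152 in normal tissue and 123, 145 and 159 in tumor. The tumor arrays lay close together, while the normal arrays spread from near the floor to the tumor level. The difference of 0.68 ± 0.28 did not pass (adjusted p 0.0946), and tumor was higher in 4 of 6 pairs. Without the normal array of diet #1 and Dnmt+/+, whose intensity was 152, it was 0.92 and passed (adjusted p 0.0254), and it also passed on the deposited values (0.72, adjusted p 0.038). The normal array of diet #1 and Dnmt+/- was at the deposited value 50, and its tumor array at 60.9, a ratio of 1.22. After normalization this pair had the largest difference, 1.70. In the diet #1 Dnmt+/+ pair the deposited values were 66.9 in normal tissue and 72.2 in tumor. The largest deposited ratio was 3.37, in diet #2 and Dnmt+/+. Without the normal array of diet #1 and Dnmt+/- the value was 0.44. Over the 12 fits that left out 1 array, the limma adjusted p ran from 0.0254 to 0.197. The smallest value of all alternatives was 0.18, within diet #1. Against 18.2% higher and 16.9% lower over all features, 8 of 16 tested fibroblast markers rose, among them Col1a1 and Sparc, and 1, Fbln1, fell. Their summed intensity was 13015 to 17881 in normal tissue and 16745 to 21250 in tumor, and its part in the S100a4 values was not tested.

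S100a3, described mainly in hair follicles, had intensities of 129, 221 and 321 in normal tissue and 130, 189 and 317 in tumor. The groups overlapped almost wholly, with 2 pairs higher and 4 lower in tumor. The difference was -0.11 ± 0.15 (adjusted p 0.576), with a 95% interval of -0.44 to 0.21 on the log2 scale.

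S100a8 and S100a9 form calprotectin, a main protein of neutrophils that binds metals and signals through TLR4. S100a8 intensity was 42.0, 61.7 and 127 in normal tissue and 43.1, 78.7 and 492 in tumor. S100a9 intensity was 19.8, 44.99 and 56.7 in normal tissue and 33.4, 45.2 and 182 in tumor. The S100a8 value of 127 was a deposited 53.3, on the diet #1 Dnmt+/+ normal array. The other diet #1 arrays were at the deposited value 50 for S100a8, and every diet #1 array was for S100a9. The highest value of both genes was on the same array, the tumor of diet #3 and Dnmt+/-, with deposited intensities of 657 and 259. The other tumor arrays did not exceed 105 for S100a8 and 53.4 for S100a9. S100a8 was higher in tumor in 4 code pairs, those of diets #2 and #3, and lower in 2, those of diet #1. Deposited tumor over normal ratios of S100a8 were 2.13 and 2.64 in diet #2 and 9.07 and 1.63 in diet #3 (Dnmt+/- then Dnmt+/+). S100a9 was higher in 1 pair, lower in 2 and equal in 3. In a fit with no filter neither gene passed, with 0.50 ± 0.51 (adjusted p 0.593) for S100a8 and 0.31 ± 0.30 (adjusted p 0.566) for S100a9.

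Neutrophil markers were higher in tumor for 4 of 9 tested genes (Ltf, Mmp9, Ly6g and Padi4) and lower for 0. Over all features, 18.2% were higher and 16.9% lower. The other 9 of the 18 neutrophil markers on the array, including Mpo, Cxcr2 and Mmp8, were below the filter. The summed intensity of all 18 was 2210 to 2656 in normal tissue and 2920 to 3998 in tumor. The highest sum was on the same array as the S100a8 and S100a9 maxima. Among tumors, that array also had the highest summed macrophage and monocyte markers, at 22733 against 17236 to 20011. Its summed T and B cell markers were likewise the highest of the tumors, at 9358 against 5199 to 7223. In normal tissue the 2 sums reached 21353 and 9696. The part of these cells in the S100a8 and S100a9 values was not tested.

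**Figure D2:**
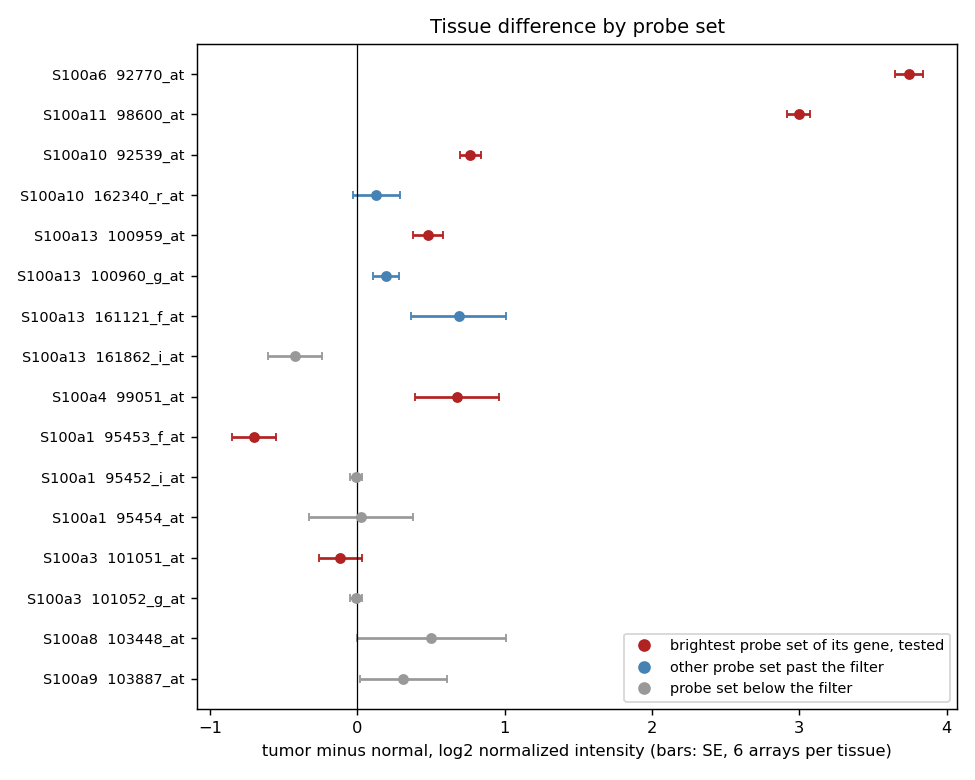
Tumor minus normal difference (log2, x axis) of all 16 S100 probe sets, with SE bars, 6 arrays per tissue. Red marks the brightest tested probe set of a gene, blue another probe set past the filter and grey a probe set below it. S100a6 at 3.74 and S100a11 at 2.99 stand apart from the rest, and the second S100a10 probe set, at 0.13, lies below the first, at 0.77.

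Of mast cell markers, 6 of 6 tested genes rose, and their summed intensity went from 798 to 1155 in normal tissue to 8485 to 30109 in tumor. Adipocyte markers fell in 6 of 7 tested genes (2027 to 3043 against 1264 to 1541). Macrophage and monocyte markers had 2 of 14 higher and 3 lower, smooth muscle markers 0 of 7 higher and 1 lower, nerve and glia markers 0 of 3 higher and 1 lower, T and B cell markers 0 of 5 higher and 2 lower, and exocrine pancreas markers 0 of 12 in either direction. Shares over all features were 18.2% higher and 16.9% lower. The part of these cell types in the S100a6, S100a11, S100a10 and S100a13 differences was not tested.

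Partners of S100 proteins were described by lists. In a list of annexins, plasminogen genes and other S100 partners such as Ahnak and Cacna1b, 9 of 11 tested genes rose and 1 fell. Over all features, 18.2% were higher and 16.9% lower. The median difference of the 11 was 1.05. Plau and Plg were on the array but below the filter. The largest increases were Anxa1 at 17.7-fold, Plat, the tissue plasminogen activator, at 7.09-fold, and Plaur, the urokinase receptor, at 4.60-fold. Anxa1 and Plaur had their lowest normal arrays at the floor, which sets part of the size of their folds. Cacna1b, a calcium channel subunit, fell by 0.32 on the log2 scale. Anxa2, the S100a10 partner, was named outside the rule for largest changes, after its value was seen. It rose 1.91-fold, from 7648, 9834 and 13079 in normal tissue to 17236, 18777 and 21179 in tumor (limma adjusted p 1.45e-04).

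**Figure D3:**
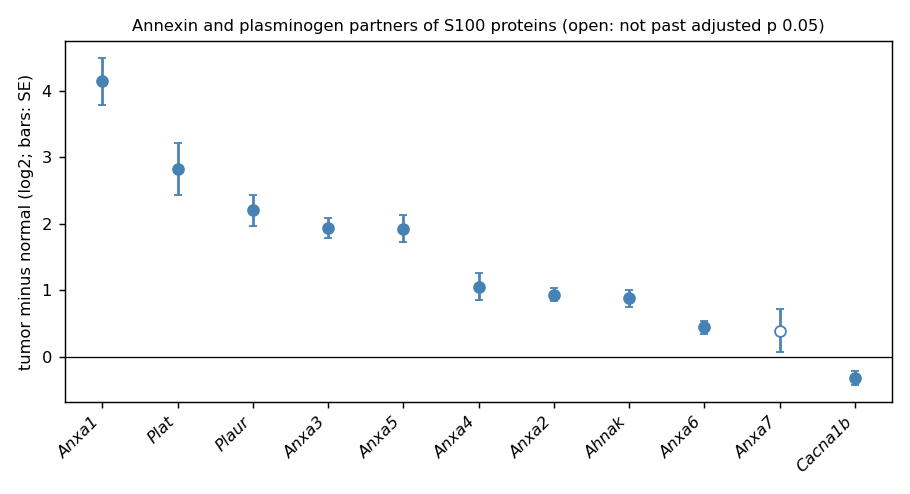
Tumor minus normal difference (log2, y axis, SE bars) of the 11 tested annexin and plasminogen partners, ordered by size. Filled points passed an adjusted p of 0.05. Anxa1 is highest at 4.15, Anxa7 did not pass and Cacna1b is lowest at -0.32.

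Of 6 tested receptors of S100 proteins, only Cd14, a co-receptor of TLR4, passed, at 1.86-fold higher in tumor. Ager, the gene of RAGE, was on the array but below the filter. Of 11 tested intracellular targets, Cyba, a subunit of the NADPH oxidase that calprotectin supports, rose 3.17-fold and Myh9, the S100a4 partner, rose 1.75-fold, while Mdm2 fell by 0.68 on the log2 scale. Cacybp, the partner of S100a6, had a difference of 0.32 ± 0.14 and did not pass (adjusted p 0.11). Of 19 other tested EF-hand and calcium-binding genes, 4 rose, led by the calpain Capn2 at 7.46-fold (lowest normal array at the floor) and its small subunit Capns1 at 2.01-fold, with Rcn1 at 1.60-fold. The pair that fell were Calml4, by 0.59, and Pdcd6, by 0.32 on the log2 scale. Over all features, 18.2% were higher and 16.9% lower in tumor, and the counts of these lists were not tested against those shares.

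In RefSeq order, 70 protein-coding genes run from S100a1 to S100a10 on chromosome 3, and 15 are S100 genes. Of the 9 S100 genes tested, 4 rose and 1 fell. Of the 55 others, which belong mostly to skin barrier families, 8 were tested and 1, Sprr1a, rose, 5.27-fold (limma adjusted p 0.0149, lowest normal array at the floor). The 2 S100 genes of the cluster that moved most, S100a6 and S100a11, are not neighbours in this order. S100a3, S100a4 and S100a5, the tested genes just before S100a6, did not pass. S100a1 and S100a13 overlap by 98 bases on opposite strands, and S100a1 fell where S100a13 rose. In a wider list of genes in and around the cluster, 2 of 13 tested rose, Sprr1a and Ilf2, and 0 fell. The shares over all features were 18.2% and 16.9%.

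**Figure D4:**
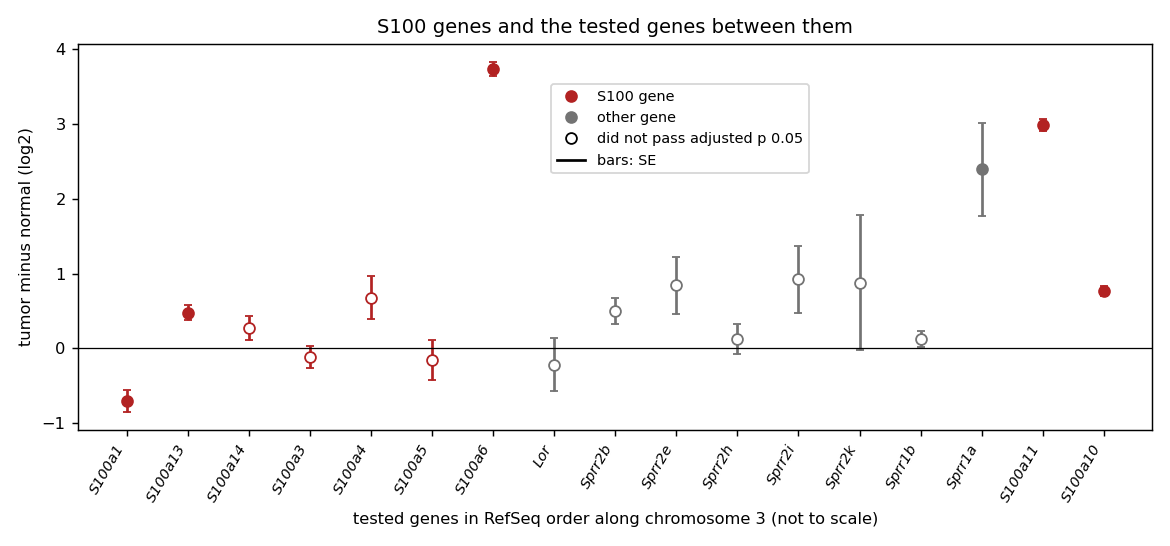
Tumor minus normal difference (log2, y axis, SE bars) of the tested genes from S100a1 to S100a10, in RefSeq order along chromosome 3 and not to scale. Red points are S100 genes, grey points other genes, and open points did not pass an adjusted p of 0.05. S100a6, at 3.74, stands beside S100a5, at -0.16, and Sprr1a, at 2.40, is the only filled grey point.

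Across the 12 arrays, after the mean of each diet was removed, S100a6 and S100a11 followed each other with a Pearson r of 0.997, and S100a10 followed them with r of 0.990 and 0.991. S100a1 ran opposite to S100a6, with r of -0.84. Outside the family, the genes most like S100a6 were Pla2g2a (r = 0.996), Ran (0.995) and Scd2 (0.995), and those most like S100a11 were Scd2 (0.995), Stra6 (0.994) and Pla2g2a (0.993). Nearest to S100a10 were Lmna (0.996), Golm1 (0.995) and Actn1 (0.994), nearest to S100a13 were Tnfaip8, Tfcp2l1 and Dcn (0.948 to 0.949), and nearest to S100a1 were Ccdc90b (0.979), Casp6 (0.967) and Uqcrh (0.961). These values describe 12 arrays that share the split between tissues, and each correlation includes it.

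Genotype was compared as Dnmt+/- minus Dnmt+/+, over 6 arrays each. None of the 7 S100 genes passed (smallest limma adjusted p 0.917), and 0 had an unadjusted p under 0.05. Over all features, 0.0156% passed, 1 of 6400, and 292 had an unadjusted p under 0.05. The 95% interval of the Dnmt+/- over Dnmt+/+ ratio was 0.836 to 1.12 for S100a6, 0.896 to 1.15 for S100a11, 0.933 to 1.16 for S100a10 and 0.926 to 1.27 for S100a13. It was wider for S100a1, at 0.692 to 1.11, and for the dim S100a4, at 0.631 to 1.53. The tumor minus normal difference was also compared between genotypes. For that interaction 0 of 7 S100 genes and 0% of features passed, with 179 features at an unadjusted p under 0.05. For S100a6 the interaction was -0.00 ± 0.20, with a 95% interval of -0.46 to 0.45 on the log2 scale.

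Diet #3 was compared with diet #2, over 4 arrays each. No S100 gene passed, where 4.28% of features did, although 2 of the 7 had an unadjusted p under 0.05, against 1387 of 6400 features. S100a13 lay closest to the threshold. Its deposited intensity was 1931 and 2166 in diet #3 normal tissue against 1370 and 1169 in diet #2, and 2953 and 2528 in diet #3 tumor against 2502 and 1805 in diet #2. It was higher in diet #3 in all 4 matched comparisons, by 0.52 ± 0.12 (log2, SE), or 1.44-fold (95% interval 1.18 to 1.74), with a limma adjusted p of 0.0503. These values are of its brightest probe set. Its other probe sets past the filter gave 0.25 ± 0.11 (limma adjusted p 0.218) and 0.41 ± 0.39 (adjusted p 0.615). The probe set below the filter gave 0.57 ± 0.22 (adjusted p 0.224). When arrays sharing a code were treated as a random block (within-code correlation -0.16, which eases calls between codes), S100a13 passed (adjusted p 0.0261), and it passed in 7 of 23 alternatives in all (adjusted p 0.0251 to 0.151). S100a6 was lower in diet #3 by a value of -0.38 ± 0.11 (adjusted p 0.0947), in 3 of 4 matched comparisons. It passed with trended robust variances (adjusted p 0.048), and with median scaling its value was -0.19. For the interaction of tissue with these diets, 0 of 7 S100 genes passed (smallest adjusted p 0.795), against 0.344% of features. The interval of this interaction was -0.72 to 0.39 for S100a6 and -0.22 to 0.65 for S100a11, on the log2 scale.

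**Figure D5:**
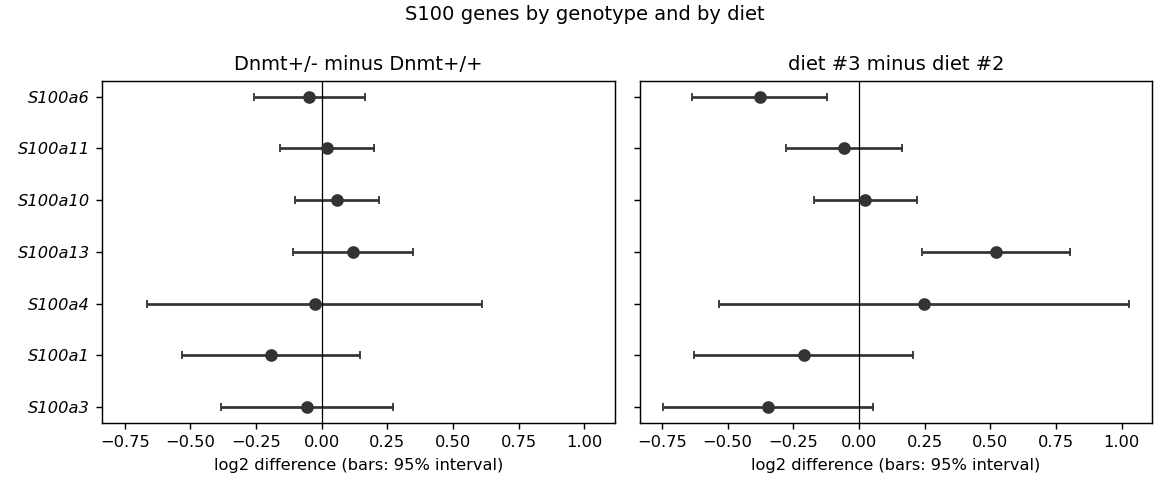
Log2 differences (x axis) of the 7 tested S100 genes between Dnmt genotypes (left, 6 arrays each) and between diet #3 and diet #2 (right, 4 arrays each), with 95% intervals. All genotype intervals cross 0, and on the right the intervals of S100a13, centred on 0.52, and S100a6, centred on -0.38, do not cross 0, though neither passed after adjustment.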

How the data were processed

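RNA of 12 samples was hybridised to Affymetrix MG_U74Av2 arrays, per the labels. The authors deposited linear intensity values, 1 per probe set; the software is not stated in the sources used here. From these values 66 control probe sets were removed, the other 12422 were quantile normalized, values below the 20th percentile (44.8) were raised to it, and log2 was taken. The dimmest 40% by mean were dropped, and the brightest stood for its gene (6400 features). The annotation gave 1 symbol to 10833 probe sets, several to 396 and none to 1193. limma 3.58.1 (R 4.3.3) was fitted with tissue, genotype and diet as terms, over all features, with Benjamini-Hochberg adjustment and a threshold of 0.05. The scripts were tested on simulated data. The number of arrays limits the precision.

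The sample codes pair arrays across tissues, from the labels. For arrays sharing a code, deviations had correlations of 0.463 to 0.677, which include differences between diets and so the file format of diet #1. After diet and genotype were removed, the range was -0.574 to -0.380. That removal by itself makes the correlation negative, even for unrelated arrays. Neither range therefore measures how alike the arrays of a code were. The code was a block in an alternative. The genes, lists and motifs were chosen with earlier results of these data known. For named genes, the rule took every S100 member, the 3 largest changes each way past the threshold in each partner list, and the 3 genes most like each member that passed for tissue. Alternatives covered scaling, floor, filter, probe set, variance model, block, threshold, single arrays and diets.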

Additional observations from a re-analysis of the deposited data

How the results depend on the processing

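S100a6 (3.50 to 3.84 on the log2 scale) and the shared S100a11 probe set (2.75 to 3.14) passed for tissue in all 28 alternatives, with a largest adjusted p of 0.0493 within diet #1. Of the 5 S100 genes past the threshold for tissue, 2 (S100a6 and S100a11) passed within diet #1 and 3 within diet #3 (those and S100a1), in fits of 4 arrays each. S100a10 was lost within diets #1 and #3 (adjusted p 0.18 and 0.0584), S100a13 within each diet and with median scaling, and S100a1 within diet #1 and without diet #2. With the code as a block, whether random or fixed, the count for tissue stayed 5, and the paired analysis changed no tissue call. For diet #3 against diet #2 the count of 0 became 1 with median scaling, a floor at the 40th percentile, no filter, the lowest 60% removed and the random code block, and 2 (S100a13 and S100a6) with trended robust variances. Leaving out single arrays gave 0 to 1, and 1 without the diet #2 Dnmt+/- tumor. S100a13 passed in 7 of 23 alternatives (adjusted p 0.0251 to 0.151). The genotype and interaction counts of S100 genes stayed 0 in every alternative run.

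Median scaling moved the median feature by -0.099 and split tissue calls as 847 higher and 1551 lower, and the deposited values by 0.13, as 1358 and 729. Over all features, tissue calls were 1343 at an adjusted p of 0.01, 1365 without diet #2, and 42, 1235 and 580 within diets #1, #2 and #3. Genotype calls were 0 to 3. Diet calls (main 274) were 90 on deposited values, 433 with the lowest 60% removed, 594 with the block, 21 at 0.01 and 21 to 35 without 1 normal array of diets #2 or #3, and 64 to 144 without 1 tumor array of them. Calls for the tissue by diet interaction (main 22) were 11 to 61. The cause was not tested.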

Other observations

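S100g, calbindin D9k, the calcium-binding protein of absorptive enterocytes, is another S100 gene, named after its values were seen. Its deposited intensity in normal tissue was 50 and 110 on diet #1, 3305 and 795 on diet #2, and 168 and 117 on diet #3 (Dnmt+/- then Dnmt+/+). In tumor it was 951 and 1185, 902 and 1638, and 669 and 1217 in the same order. Tumor was therefore higher in 5 of 6 code pairs, and lower in the diet #2 Dnmt+/- pair, whose normal array was highest. The tumor minus normal difference of 2.16 ± 0.82 did not pass (limma adjusted p 0.07). Its second probe set had the same highest normal array, at 1185.

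S100b, S100a16 and S100a5 stayed dim or without a called difference. S100b, a marker of glia, and S100a16 were below the filter, at most at a deposited 50 on any array. S100a5 had a difference of -0.16 ± 0.27 (limma adjusted p 0.692) and S100a14, of epithelia, 0.27 ± 0.17 (adjusted p 0.234).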
